A study of Mus musculus with 6 samples.

Results

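Lysosomal genes of mouse liver were examined after a high-fat diet: 32 genes for luminal enzymes and their activators, membrane proteins, the regulator Tfeb and subunits of the proton pump V-ATPase. They were taken as the probe sets whose only gene symbol in the platform annotation is one of the 32. This gave 77 of 45037 probe sets, for 31 of the 32 genes and of 18193 genes in all. Atp6v0c had no such probe set and was not analysed here. The level filter was the 40th percentile of all levels on an array. All 31 genes lay above it in each of the 6 arrays, so all 31 were tested.

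The high-fat group was male C57BL/6 mice, an inbred strain, fed from 8 weeks of age for 12 weeks on a diet with 60% of its calories from fat. The normal diet group was male C57BL/6 mice of the same age fed a normal diet for 12 weeks. Each diet had 6 mice, and liver RNA was pooled by 2, read here as 3 pools per diet with 1 Affymetrix expression array each. The study set the diets side by side to look for genes behind disturbed lipid handling in the obese liver. The array of a pool is the replicate (n = 3 per diet), so p-values measure the spread between pools and not between single mice. In whole liver RNA, fewer cells of a type and less RNA per cell cannot be told apart.

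Lysosomes are acidic compartments that break down proteins, glycans, glycogen and lipids delivered by endocytosis and autophagy. The V-ATPase, made of a membrane part (V0) and an ATP-hydrolysing part (V1), pumps protons in, and most of the hydrolases need the resulting low pH. In liver, lysosomes degrade lipoprotein and lipid droplet lipids in hepatocytes and digest engulfed material in Kupffer cells, the resident macrophages. Tfeb encodes a transcription factor that binds an E-box with the core CACGTG, known as the CLEAR element, at many lysosomal genes.

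Promoter sequences of RefSeq (build GRCm38.p6, 250 bases before to 50 bases after a start site) were found for 26 of the 32 genes. They were not found for Asah1, Atp6v0d2, Atp6v1b2, Atp6v1h, Ctsb and Ctsh. The core CACGTG stood in a promoter of 9 of the 26 genes (34.6%), against 8.09% of the 27025 genes in the table. The longer form TCACGTG, on either strand and always including the core, stood in 8 of the 26 (30.8%), against 4.29% of all genes in the table. These 8 were Atp6v1a, Ctsa, Ctsd, Gaa, Gla, Glb1, Lamp1 and Mcoln1, and Ctsl held the core alone. The stretches before the start site are shown because TFEB binds this form. Capitals mark TCACGTG or its reverse complement.
Atp6v1a, chr16:44139364-44139411, minus strand: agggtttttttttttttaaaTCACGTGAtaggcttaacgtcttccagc
Ctsd, chr7:142387899-142387946, minus strand: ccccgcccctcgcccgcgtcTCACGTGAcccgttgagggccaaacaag
Ctsa, chr2:164833740-164833772, plus strand: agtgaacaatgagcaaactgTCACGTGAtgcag
Glb1, chr9:114401009-114401055, plus strand: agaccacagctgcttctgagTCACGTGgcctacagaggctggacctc
Gaa, chr11:119267802-119267848, plus strand: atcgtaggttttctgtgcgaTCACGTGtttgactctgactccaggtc
Gla, chrX:134601173-134601253, minus strand: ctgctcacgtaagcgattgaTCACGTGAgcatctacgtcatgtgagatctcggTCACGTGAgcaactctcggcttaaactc
Lamp1, chr8:13159079-13159160, plus strand: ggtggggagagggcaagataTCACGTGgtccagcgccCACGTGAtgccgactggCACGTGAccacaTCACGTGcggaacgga
Mcoln1, chr8:3500427-3500500, plus strand: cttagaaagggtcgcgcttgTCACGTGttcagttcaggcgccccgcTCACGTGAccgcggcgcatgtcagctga
Ctsd held a further match farther from its start site, and Ctsa a further one just after it. These matches describe letters in a window and are not sites of measured binding.

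The arrays differed in ways that bear on these genes. High-fat arrays correlated with each other at r of 0.994 to 0.995 over all probe sets, and normal diet arrays at 0.984 to 0.992. Normal diet 3 was the lowest of the 6 arrays for 23 of the 31 lysosomal genes (74.2%), against 28.0% of all genes tested. These shares are not like for like, since 27 of the 31 had a higher high-fat mean, against 50.5% of all genes tested. Normal diet 1 and 2 were lowest for 4 and 1 of the 31. Of the 14071 genes tested, normal diet 1, 2 and 3 were lowest for 2145, 1771 and 3939. The SD was larger in the normal diet group than in the high-fat group for 24 of the 31 genes (77.4%), against 66.7% of all genes tested. RNA integrity was read from the Gapdh and Actb controls as the log2 level at the 3' end minus that at the 5' end. This was -0.19 to 0.01 in the high-fat arrays, against 0.36, -0.03 and 0.01 in normal diet 1, 2 and 3. The same difference of the Actb controls was 1.02 to 1.23 in the high-fat arrays, against 1.59, 1.22 and 1.12 in normal diet 1, 2 and 3. Normal diet 1 was highest by both, and the part of RNA integrity in the results was not tested.

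In livers of the high-fat group 10 of the 31 lysosomal genes were higher than under the normal diet and 0 were lower (limma, Benjamini-Hochberg over 14071 genes, adjusted p below 0.05). Of all genes tested, 7.6% were called, 5.87% higher and 1.73% lower. At an unadjusted p below 0.05 limma gave 17 of the 31 lysosomal genes, all with a positive difference, against 27.6% of all genes tested in either direction. The 10 were the enzyme genes Lipa, Gusb, Hexa, Neu1, Ppt1, Ctsd, Ctsz and Ctsk, the activator gene Psap and the V-ATPase gene Atp6v1a. Their folds ran from 1.54 to 2.18. The median difference of the 31 genes was 0.37 on the log2 scale, against 0.00 over all genes tested. Differences were above 0 for 27 of the 31, against 50.5% of all genes tested. In 19 of the 31 genes all high-fat arrays lay above all normal diet arrays, against 21.1% of all genes tested. The reverse held for 1 lysosomal gene, Laptm5, by the probe set that represents it and not by another that was called higher, against 14.7% of all genes, and 35.8% of all genes were without overlap in either direction.

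**Figure D1:**
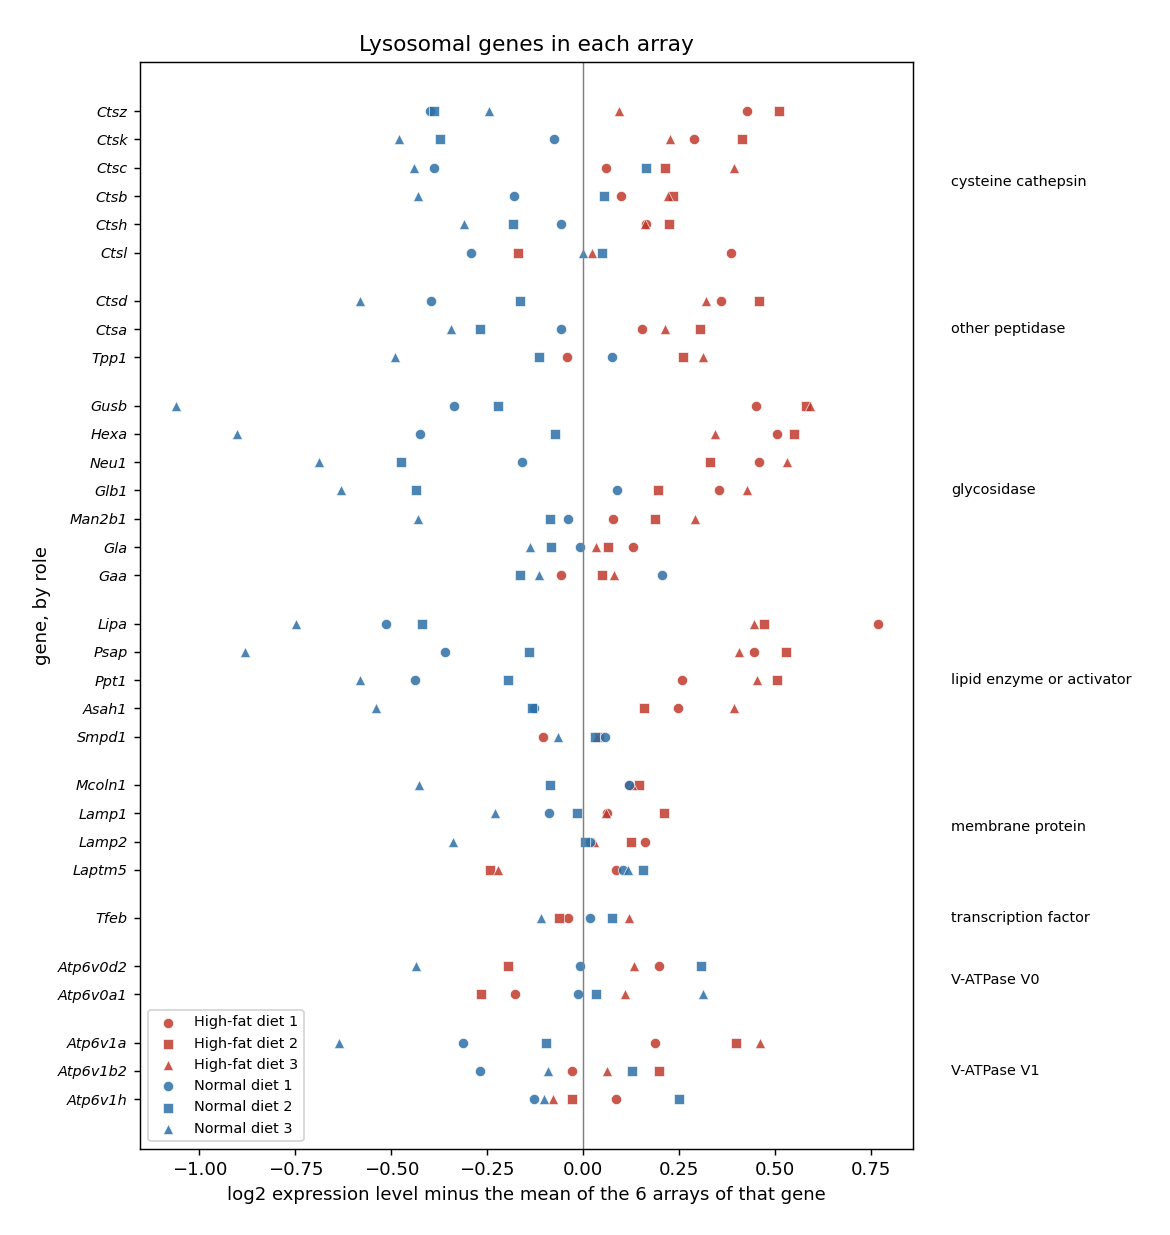
Log2 expression level of each lysosomal gene in each array, minus the gene's mean over the 6 arrays (x axis), with genes grouped by role (y axis), high-fat arrays in red and normal diet arrays in blue, marker shape giving the array number. The high-fat arrays lie to the right of the normal diet arrays in 19 of 31 genes, and normal diet 3 is the leftmost array in 23.

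The count of 10 depended on the high-fat arrays. It was 2 without high-fat 1, 1 without high-fat 2 and 2 without high-fat 3, where 1.31%, 1.01% and 0.774% of all genes were called higher. It was 9 without normal diet 1, 9 without normal diet 2 and 10 without normal diet 3, where 5.56%, 5.53% and 6.73% of all genes were called higher. All 10 kept the call without normal diet 3, with differences of 0.53 (Ctsk) to 1.03 (Lipa). Lipa was called whichever array was left out, Ppt1 also without high-fat 1 (adjusted p = 0.0495) and Ctsz without high-fat 3 (adjusted p = 0.0440). The other 7 lost the call whichever high-fat array was left out, with adjusted p from 0.0613 to 0.148 and differences between 0.57 and 1.13. Without normal diet 1 the call ended for Hexa, Ctsz and Atp6v1a (adjusted p = 0.0621, 0.0536 and 0.0665). Without normal diet 2 it ended for Ctsk and Ctsz (adjusted p = 0.0747 and 0.0598).

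**Figure D2:**
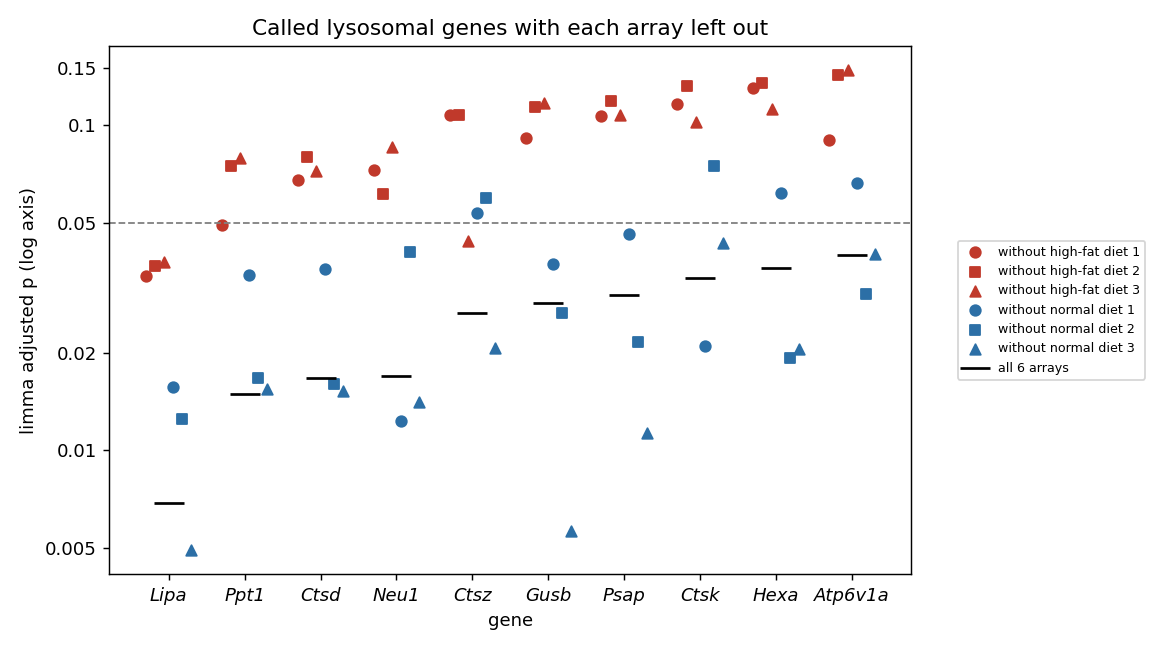
Limma adjusted p (y axis, log scale) of the 10 called lysosomal genes (x axis) with all 6 arrays (black bars) and with 1 array left out (red for a high-fat array, blue for a normal diet array), the dashed line at 0.05. All 6 leave-one-out values of Lipa lie below the line, between 0.00493 and 0.0380.

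Among the genes of lysosomal lipid breakdown 3 of 5 rose. Beside this and the counts by role below, 5.87% of all genes tested were called higher, and 50.5% had a difference above 0. Differences between roles were not tested. Lipa encodes lysosomal acid lipase, which splits cholesteryl esters and triglycerides. Its log2 level was 10.07, 9.78 and 9.75 in the high-fat arrays, against 8.79, 8.88 and 8.56 in the normal diet arrays. The groups lay well apart, and Lipa rose 2.18-fold (difference 1.12 ± 0.14, SE, n = 3 arrays per diet, adjusted p = 0.00687). Psap encodes prosaposin, the precursor of the saposins that help hydrolases reach sphingolipids. It had 10.38, 10.47 and 10.35 in the high-fat arrays and 9.58, 9.80 and 9.06 in the normal diet arrays, where normal diet 3 was lowest. Psap rose 1.89-fold (0.92 ± 0.18, adjusted p = 0.0300), and its difference was 0.71 without normal diet 3. Ppt1 encodes palmitoyl-protein thioesterase, which takes fatty acids off proteins. Its levels were 6.94, 7.19 and 7.14 under the high-fat diet, against 6.25, 6.49 and 6.10 under the normal diet. It rose 1.75-fold (0.81 ± 0.13, adjusted p = 0.0149).

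Asah1 and Smpd1, whose products act on ceramide and sphingomyelin, were not called. Asah1, the acid ceramidase gene, had 7.93, 7.84 and 8.07 in the high-fat arrays and 7.55, 7.55 and 7.14 in the normal diet arrays. The groups did not overlap, and the difference of 0.53 ± 0.14 had an adjusted p of 0.0639. Smpd1, the acid sphingomyelinase gene, lay at 8.15, 8.30 and 8.29 against 8.31, 8.29 and 8.19 in the normal diet arrays. These ranges overlapped, and the difference was -0.02 ± 0.10 with a 95% confidence interval from -0.24 to 0.21.

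Of 7 glycosidase genes 3 rose, and all 7 differences were above 0. Gusb encodes beta-glucuronidase, an enzyme of glycosaminoglycan breakdown. It had 8.11, 8.25 and 8.25 in the high-fat arrays, against 7.33, 7.44 and 6.60 in the normal diet arrays. It rose 2.12-fold (1.08 ± 0.21, adjusted p = 0.0284), and the difference was 0.82 without normal diet 3. Hexa encodes the alpha subunit of beta-hexosaminidase, which degrades gangliosides. Its levels were 9.18, 9.23 and 9.02 in the high-fat arrays and 8.25, 8.61 and 7.78 in the normal diet arrays, with normal diet 3 again lowest. Hexa rose 1.91-fold (0.93 ± 0.20, adjusted p = 0.0365), or by 0.71 on the log2 scale without normal diet 3. Neu1, the lysosomal sialidase gene, had 7.36, 7.23 and 7.43 in the high-fat arrays and 6.74, 6.43 and 6.21 in the normal diet arrays. It rose 1.84-fold (0.88 ± 0.15, adjusted p = 0.0170).

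Glb1 encodes beta-galactosidase, which forms a complex with the products of Neu1 and Ctsa. It lay at 5.47, 5.31 and 5.54 in the high-fat arrays, against 5.20, 4.67 and 4.48 in the normal diet arrays, and was not called (0.65 ± 0.19, adjusted p = 0.0787). It passed without normal diet 1 (0.86, adjusted p = 0.0191). Man2b1, an alpha-mannosidase gene, differed by 0.37 ± 0.13 (adjusted p = 0.129), with no overlap between the diets. Gla, the alpha-galactosidase gene, differed by 0.15 ± 0.09 (adjusted p = 0.320). Gaa, whose product degrades glycogen in the lysosome, had 7.94, 8.04 and 8.07 in the high-fat arrays and 8.20, 7.83 and 7.88 in the normal diet arrays. Its groups overlapped, and the difference was 0.05 ± 0.13 (95% confidence interval -0.24 to 0.34).

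Of 6 cysteine cathepsin genes 2 rose, and all 6 differences were above 0. Ctsz encodes a carboxypeptidase. Its levels were 11.39, 11.48 and 11.06 in the high-fat arrays, against 10.57, 10.58 and 10.72 in the normal diet arrays. Ctsz rose 1.61-fold (0.69 ± 0.13, adjusted p = 0.0264). It was the called gene in which normal diet 3 was the highest of its group, whereas normal diet 3 was the lowest array for the other 9. Ctsk encodes a collagen-degrading protease known from osteoclasts. It had 5.68, 5.80 and 5.61 in the high-fat arrays and 5.31, 5.01 and 4.91 in the normal diet arrays, and rose 1.54-fold (0.62 ± 0.13, adjusted p = 0.0339).

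The remaining cysteine cathepsins did not pass. Ctsh, an aminopeptidase gene, had 11.09, 11.15 and 11.08 in the high-fat arrays, above 10.86, 10.74 and 10.61 in the normal diet arrays (0.37 ± 0.10, adjusted p = 0.0744). Ctsb, which encodes a major liver cathepsin, differed by 0.37 ± 0.14 (adjusted p = 0.140). Ctsc, whose product activates serine proteases of immune cell granules, differed by 0.44 ± 0.18 (adjusted p = 0.165), with normal diet 2 at 9.18 inside the high-fat range of 9.08 to 9.41. Without normal diet 2 Ctsc passed (0.64, adjusted p = 0.0436). Ctsl, an endopeptidase gene, differed by 0.16 ± 0.17 (adjusted p = 0.559), and high-fat 1 at 12.27 stood above the other arrays, which lay between 11.59 and 11.93.

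Among the other peptidases Ctsd rose. It encodes the aspartic protease cathepsin D and lay at 10.58, 10.68 and 10.54 in the high-fat arrays, against 9.82, 10.06 and 9.64 in the normal diet arrays. The rise was 1.69-fold (0.76 ± 0.13, adjusted p = 0.0167). Ctsa, whose product protects the sialidase and beta-galactosidase, had 9.06, 9.21 and 9.12 in the high-fat arrays and 8.85, 8.64 and 8.56 in the normal diet arrays. It just missed the threshold (0.45 ± 0.11, adjusted p = 0.0551) and passed without normal diet 1 (0.53, adjusted p = 0.0397), with array weights (adjusted p = 0.0353) and after median centring (adjusted p = 0.0461). Its adjusted p was 0.124 after quantile normalization and 0.111 after cyclic loess. Another Ctsa probe set, 1458466_at, differed by -0.16 (adjusted p = 0.391), and the mean of its probe sets gave 0.15 (adjusted p = 0.289). Tpp1, the tripeptidyl peptidase gene, differed by 0.35 ± 0.17 (adjusted p = 0.223), and its groups overlapped.

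**Figure D3:**
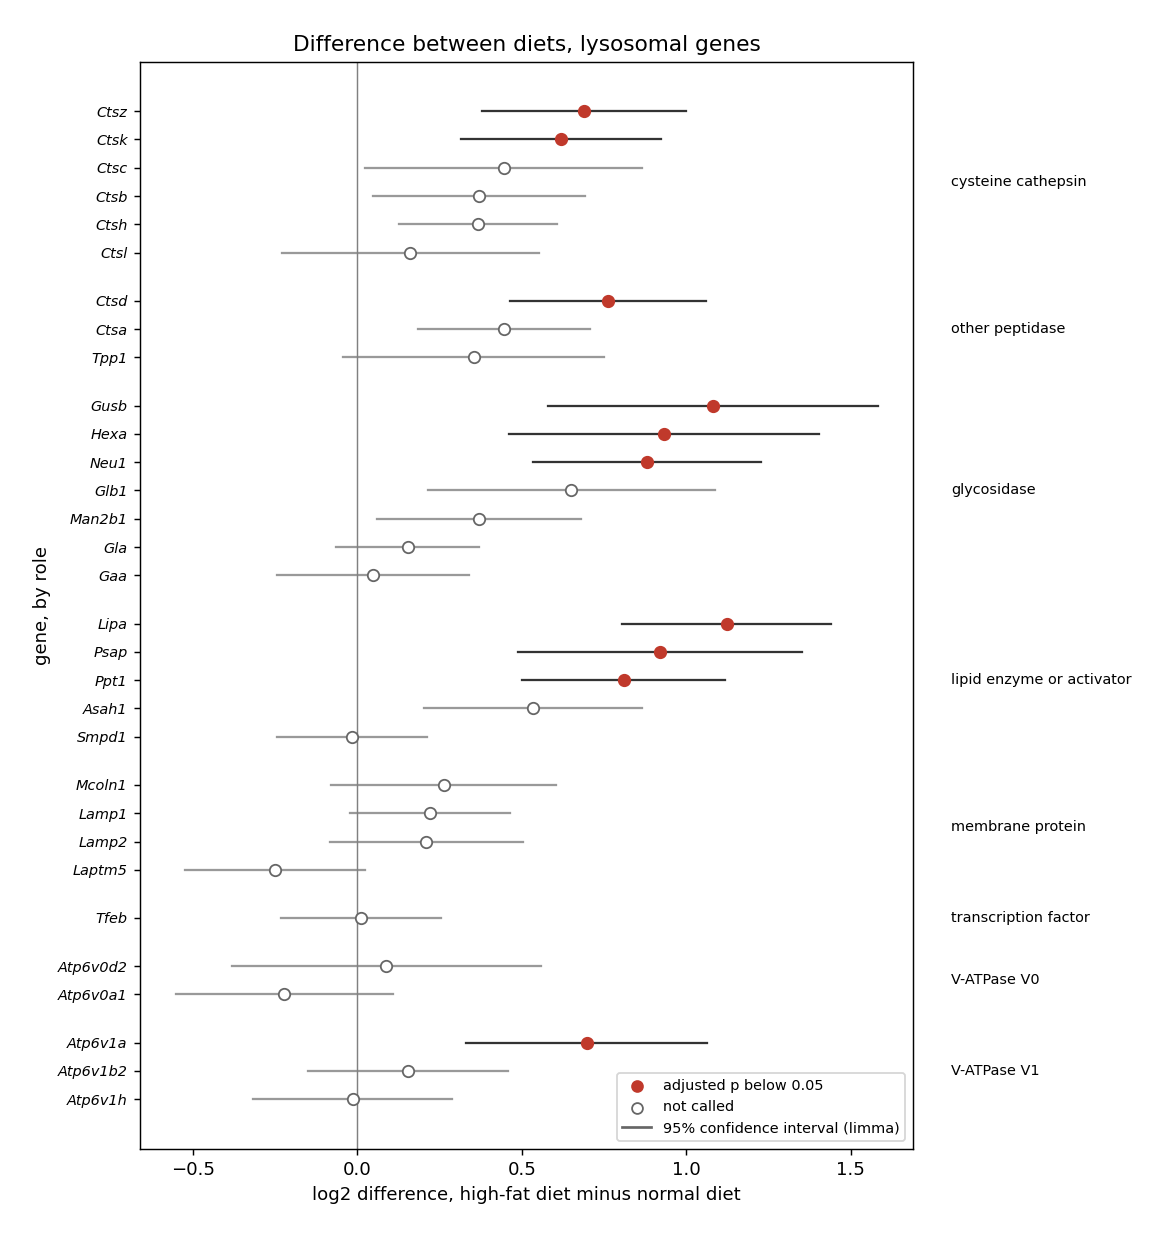
Log2 difference of high-fat minus normal diet (x axis) for each lysosomal gene (y axis, by role), with the 95% confidence interval of limma's fit as bars and filled points for an adjusted p below 0.05. Of the 10 filled points 9 are among the 21 luminal enzymes and activators and 1, Atp6v1a, is among the 10 other genes. Of all genes tested 5.87% were called higher.

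Of 4 membrane protein genes limma called 0, with the probe set that represents each. Of all genes tested, 5.87% were called higher and 1.73% lower. Lamp1 and Lamp2 encode the major glycoproteins of the lysosomal membrane. Lamp1 had 11.66, 11.81 and 11.66 in the high-fat arrays, against 11.51, 11.58 and 11.37 in the normal diet arrays, a difference of 0.22 ± 0.10 (unadjusted p = 0.0698, adjusted p = 0.217). Lamp2 differed by 0.21 ± 0.13 (unadjusted p = 0.134, adjusted p = 0.310). Mcoln1, which encodes a lysosomal calcium channel, had 7.15, 7.18 and 7.16 in the high-fat arrays and 7.15, 6.95 and 6.60 in the normal diet arrays. Its difference of 0.26 ± 0.15 (unadjusted p = 0.112, adjusted p = 0.281) was 0.11 without normal diet 3. Laptm5, a gene of blood-derived cells, differed by -0.25 ± 0.12 with the probe set that represents it (unadjusted p = 0.0673, adjusted p = 0.213). Its direction depended on the probe set: the mean of its probe sets gave 0.21, and 1 of them was called higher (0.73).

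Tfeb itself lay at 5.77, 5.74 and 5.93 in the high-fat arrays and at 5.83, 5.88 and 5.70 in the normal diet arrays. The groups overlapped, the difference was 0.01 ± 0.10 and its 95% confidence interval ran from -0.23 to 0.25. It rests on 1 probe set and was not called (adjusted p = 0.954), and its sign turned after quantile normalization (-0.06), after cyclic loess (-0.01) and with array weights (-0.04). Among the tested genes with a promoter sequence, 2 of 8 with TCACGTG were called higher (Atp6v1a and Ctsd), and 8 of 17 without it. The median difference was 0.35 for the 8 and 0.44 for the 17. No test of this contrast was made.

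Of 5 V-ATPase genes 1 rose. Atp6v1a encodes the catalytic A subunit of V1. Its levels were 7.69, 7.90 and 7.96 in the high-fat arrays, against 7.19, 7.41 and 6.87 in the normal diet arrays, a rise of 1.62-fold (0.70 ± 0.16, adjusted p = 0.0400). This call ended after quantile normalization (0.57, adjusted p = 0.0530) and after cyclic loess (0.59, adjusted p = 0.0511). Atp6v1b2, for the B subunit, differed by 0.15 ± 0.13 (95% confidence interval -0.15 to 0.46). Atp6v1h, for the regulatory H subunit, differed by -0.01 ± 0.13 (-0.32 to 0.29). In the V0 part, Atp6v0a1 differed by -0.22 ± 0.14 (adjusted p = 0.341). Atp6v0d2, a subunit gene known from osteoclasts and macrophages, had 5.16, 4.76 and 5.09 in the high-fat arrays and 4.95, 5.27 and 4.52 in the normal diet arrays. The arrays overlapped, and its difference was 0.09 ± 0.20 (95% confidence interval -0.38 to 0.56) and -0.11 without normal diet 3.

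Probe sets of one gene did not always show the same difference. When probe sets were tested one by one, 64 of the 77 passed the level filter, and 16 (25%) were called higher and 0 lower (limma, adjusted over 27399 probe sets). Of all 27399 probe sets 5.33% were called, 4.02% higher and 1.31% lower. The 16 belonged to 13 genes. Of the 21 genes with more than 1 tested probe set, 14 had differences of 1 sign and 7 of both signs. Lipa, Psap and Ppt1 had 2 called probe sets each. The second Lipa probe set, 1423140_at, had 9.28, 8.99 and 8.94 in the high-fat arrays, against 7.64, 8.12 and 7.56 in the normal diet arrays (1.30 ± 0.17, adjusted p = 0.0106). Both Psap probe sets differed by nearly the same amount, 0.92 and 0.95. The third Lipa probe set (0.70), the second of Gusb (0.68), the second of Atp6v1a (0.42) and the others of Ctsz (0.35 and 0.30) had positive differences but were not called.

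For 3 genes a probe set other than the representing one was called. Laptm5 probe set 1436905_x_at had 6.64, 6.91 and 6.77 in the high-fat arrays and 6.04, 5.95 and 6.12 in the normal diet arrays (0.73 ± 0.11, adjusted p = 0.0145). It thus lay higher in all high-fat arrays, opposite to the representing probe set 1447742_at, and 2 further Laptm5 probe sets differed by 0.39 and 0.06. Tpp1 probe set 1434768_at had 7.79, 8.09 and 8.00 in the high-fat arrays, against 7.10, 7.20 and 6.37 in the normal diet arrays (1.07 ± 0.22, adjusted p = 0.0383). Ctsb probe set 1417492_at differed by 0.86 ± 0.17 (adjusted p = 0.0342), while the 4 other Ctsb probe sets ranged from -0.15 to 0.60. Neu1 rested on 1 of its 3 probe sets, since the others differed by 0.23 and -0.15. These others lay close to the level filter of 3.48 to 3.59, at 3.43 to 3.87 and 3.95 to 4.43. The representing Neu1 probe set lay at 6.21 to 7.43. Ctsc had 2 probe sets below the filter in which the high-fat arrays were lower. One of them, 1446834_at, had 2.67, 2.94 and 3.13 in the high-fat arrays and 3.66, 3.82 and 3.45 in the normal diet arrays, and was called lower (-0.73, adjusted p = 0.0419) when no filter was applied.

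**Figure D4:**
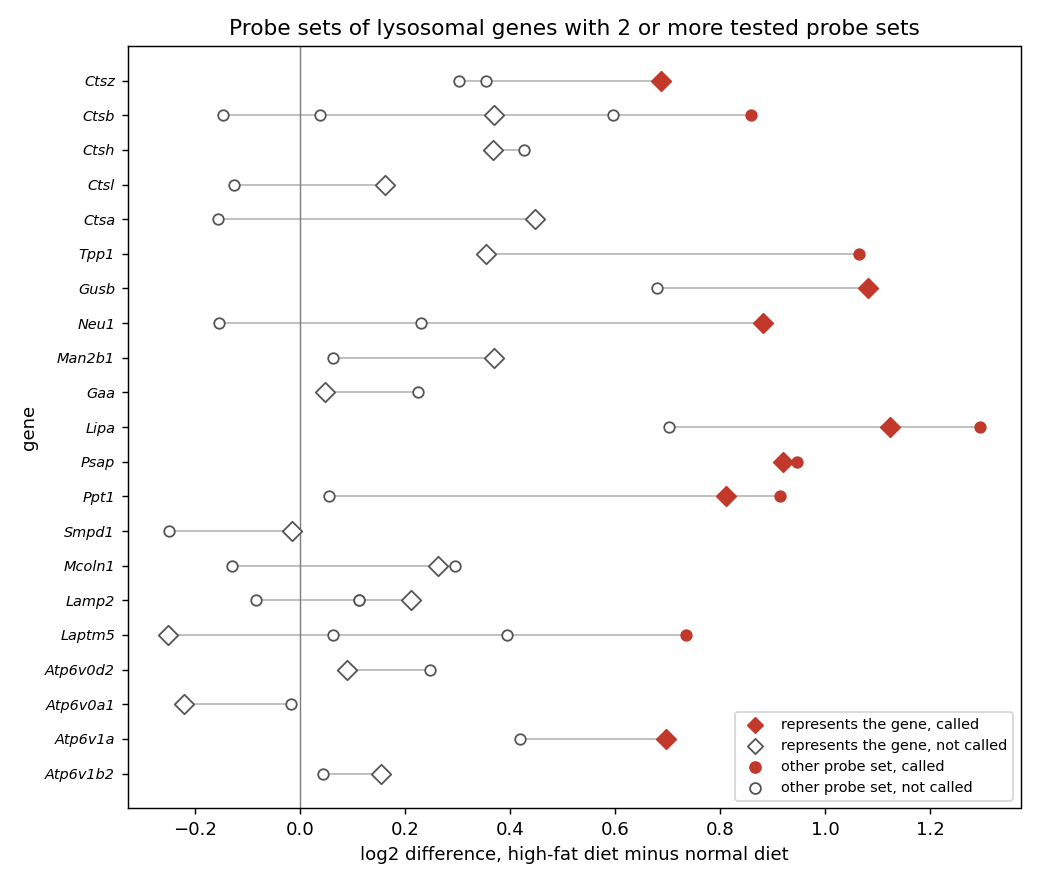
Log2 difference of high-fat minus normal diet (x axis) for every tested probe set of the 21 lysosomal genes with more than 1 (y axis), diamonds for the probe set that represents the gene, circles for others, filled where the adjusted p is below 0.05. Laptm5, Tpp1 and Ctsb show a filled circle beside an open diamond.

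Other genes of the lysosome were counted in lists. Beside them, 5.87% of all genes tested were called higher and 1.73% lower, and 27.6% had an unadjusted limma p below 0.05. Of 35 further lysosomal hydrolases 18 had an unadjusted limma p below 0.05, and the median difference was 0.44. Of the 35, 7 rose and 0 fell. They included Ctss (0.95 ± 0.12, adjusted p = 0.00741), a cathepsin of antigen-presenting cells, Smpdl3a (0.97 ± 0.14) and the arylsulfatase gene Arsb (1.04 ± 0.16). Of 26 further membrane and lipid transport genes 5 rose and 1 fell, with a median of 0.27, and 10 had an unadjusted p below 0.05. The 5 include Cd68 and Gpnmb, which are counted again below among the markers of macrophages and lipid-associated macrophages. Npc2, a sterol carrier gene, rose by 0.83 ± 0.12 and Cln3 by 0.60 ± 0.11, while Sidt2, named after its values were seen, fell by 0.51 on the log2 scale (adjusted p = 0.0340). Npc1, the partner of Npc2, differed by 0.43 ± 0.37 and by -0.04 without normal diet 3. Of 16 further V-ATPase subunits limma called 0, with a median of 0.14 and differences from -0.46 to 0.47. At an unadjusted p below 0.05 there were 3, Atp6v1e1 (0.44), Atp6v0e2 (-0.46) and Atp6ap2 (0.47), a smaller share than the 27.6% of all genes tested. Atp6v0e2 lay below the level filter in high-fat 2 and 3 (3.43 and 3.39). It passed only because the normal diet arrays lay above it, so its difference is one near background. Atp6v0d1, the widely expressed paralog of Atp6v0d2, differed by 0.16 ± 0.14.

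Of 20 genes that sort enzymes to lysosomes 3 rose and 0 fell, with a median of 0.33. They were Gga2, Vps29 and Vps35 (0.85 ± 0.18, 0.55 ± 0.12 and 0.45 ± 0.11). At an unadjusted p below 0.05 limma gave 14 of the 20, a larger share than the 27.6% of all genes tested. Of 22 relatives of Tfeb and genes of mTORC1, the growth kinase complex that acts at the lysosome, 1 rose. This was Rragc, a GTPase gene (0.55 ± 0.11, adjusted p = 0.0316). At an unadjusted p below 0.05 there were 9 of the 22, again a larger share. Mitf and Tfec, relatives of Tfeb, differed by 0.56 ± 0.15 and 0.56 ± 0.17 without passing (adjusted p = 0.0625 and 0.0870), and Tfe3 by -0.07 ± 0.11. Of 26 autophagy genes limma called 0, with a median of 0.07. At an unadjusted p below 0.05 there were 3 (Atg7, Gabarapl1 and Gabarapl2), a smaller share than the 27.6% of all genes tested. Sqstm1, which encodes the autophagy receptor p62, differed by 0.00 ± 0.21. Of 6 genes tested for inhibitors of cathepsins or of other proteases 4 rose, with a median of 0.91. Among them were Cstb (0.80 ± 0.12), Serpinb6a (1.02 ± 0.11) and Serpinb9 (1.02 ± 0.15). All 6 had an unadjusted p below 0.05. Cst6 and Cst7 of the same list lay below the level filter and were not tested.

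Markers of some other liver cell types moved with the diets as well, while 5.87% of all genes tested were called higher and 1.73% lower. Of 18 macrophage markers 13 rose, 0 fell and 5 were not called, and none lay below the level filter. The median difference was 0.72, and differences ran from -0.15 to 1.65. The 5 not called, named after the calls were seen, were C1qa, Clec4f, Fcgr1, Marco and Timd4. The mean log2 level of the 18 markers was 7.83 to 7.90 in the high-fat arrays and 7.08 to 7.28 in the normal diet arrays. Cybb differed by 1.65 ± 0.14, Cd68, which is also a lysosomal membrane protein gene, by 1.28 ± 0.13 and Mpeg1 by 0.85 ± 0.12. Of 8 markers of lipid-associated macrophages 4 rose (Mmp12, Lgals3, Itgax and Gpnmb), 0 fell and 4 were not called. The median difference was 1.13, and differences ran from -0.43 to 2.19. Their mean levels were 7.07 to 7.14 under the high-fat diet and 5.76, 5.72 and 6.63 in normal diet 1, 2 and 3. The part of macrophages in the lysosomal differences was not tested.

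Many of these calls also depended on the high-fat arrays. Of the 21 called genes named outside the 31, 5 kept the call whichever high-fat array was left out, namely Cd68, Cybb, Lgals3, Mmp12 and Serpinb6a. Ctss lost it without 1 of the high-fat arrays (adjusted p = 0.0502), and Arsb and Npc2 without 2 of them (adjusted p up to 0.0706 and 0.0540). The remaining 13 lost it whichever was left out, with adjusted p from 0.0501 for Serpinb9 to 0.166 for Vps35. With the mean of the probe sets the call also ended for Arsb (0.48), Cln3 (0.26), Gpnmb (0.58), Vps29 (0.32) and Vps35 (0.22). Leaving out a normal diet array ended the call of Gpnmb (normal diet 2, adjusted p = 0.0561), Sidt2 (normal diet 1 or 2, adjusted p = 0.0652 and 0.0742), Vps29 (normal diet 1 or 3, adjusted p = 0.0779 and 0.0572) and Vps35 (normal diet 1 or 3, adjusted p = 0.0795 and 0.0709).

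Within the normal diet group the order of arrays, by the median over genes, differed between gene lists. The median deviation from a gene's mean over all arrays was -0.45, -0.38 and -0.22 in normal diet 1, 2 and 3 for the 18 macrophage markers. For the 10 called lysosomal genes it was -0.38, -0.21 and -0.66. By these medians normal diet 3 was highest of its group for the macrophage markers and lowest for the called lysosomal genes. The 8 lipid-associated macrophage markers had -1.06, -0.95 and 0.01 in normal diet 1, 2 and 3. Normal diet 3 was also lowest of its group for autophagy (-0.20), enzyme sorting (-0.34), mTORC1 (-0.23) and further V-ATPase genes (-0.16). For the inhibitors of cathepsins or of other proteases normal diet 1 was lowest (-0.57). The 8 endothelial markers had the same order as the lysosomal genes, with -0.25, -0.12 and -0.42, while the 8 stellate cell markers had -0.24, -0.27 and -0.12 and were highest in normal diet 3. The part of these cells in the lysosomal differences was not tested. The 8 hepatocyte markers tested were abundant, with mean levels of 12.90 to 12.96 in the high-fat arrays and 13.00 to 13.09 in the normal diet arrays. Of these 1 fell, Hnf4a (-0.69 ± 0.11, adjusted p = 0.0138), named after its values were seen. Without any 1 of the high-fat arrays Hnf4a was not called, at adjusted p of 0.0524 to 0.0644. It was not called either where its probe sets were averaged (-0.48, adjusted p = 0.0635) or with a plain-suffix probe set (-0.41, adjusted p = 0.215). Of 8 endothelial markers 2 rose and of 8 stellate cell markers 3 rose. Limma called 0 of the 4 T cell, 3 B cell, 4 neutrophil, 4 cholangiocyte, 2 adipocyte and 2 erythroid markers tested, of which 2 neutrophil, 1 cholangiocyte and 1 adipocyte marker had an unadjusted p below 0.05.

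**Figure D5:**
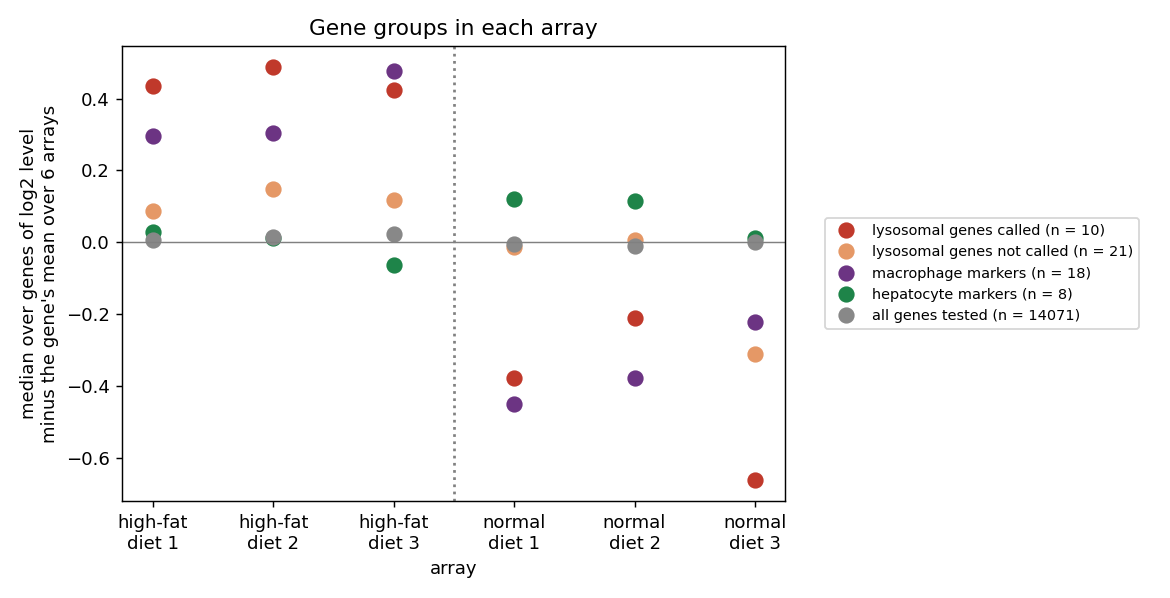
Median over genes of the log2 level minus the gene's mean over the 6 arrays (y axis) in each array (x axis, high-fat arrays left of the dotted line) for called and uncalled lysosomal genes, macrophage markers, hepatocyte markers and all genes tested. In normal diet 3 the called lysosomal genes are at -0.66 and the macrophage markers at -0.22.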

How the data were processed

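Affymetrix arrays measured liver RNA, 3 for each of 2 diets. TRIzol extraction and biotin labelling of 10 µg RNA are stated in the labels' protocols. The authors deposited log2 levels, 1 per probe set and array. The submitters' processing notes name RMA and Affymetrix Expression Console 1.0. RMA compresses differences near background. The array number limits precision, and with 3 against 3 arrays an exact permutation test cannot go below p = 0.1.

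From 45101 probe sets, 64 controls were left out, and 34945 of the rest had 1 symbol in the platform annotation. The probe set with the highest mean stood for its gene, which was tested where at least 3 arrays exceeded their 40th percentile. Titles gave the diet of each array. The diets were compared with lmFit and eBayes (limma 3.58.1, R 4.3.3), two-sided, high-fat minus normal diet, adjusted by Benjamini-Hochberg over 14071 genes, and likewise over 27399 probe sets. The test was checked on simulated data with equal spread in both diets, so the check does not cover the larger spread of the normal diet arrays. Promoter searches and counts used pandas 2.3.3 in Python 3.11.15, and matplotlib 3.10.9 drew the figures.

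The lysosomal genes and the other lists were chosen with earlier results of these data known. Every lysosomal gene is named. From each other lysosomal list and the macrophage lists up to 3 genes with the smallest p are named, plus Tfe3, Mitf, Tfec, Atp6v0d1, Cd68, Ctss, Gpnmb, Sqstm1 and Npc1. Alternatives were other level filters, a floor, variance models, scalings, choices of probe set, thresholds, leaving out each array and a replicate block. A planned description of protein sequences was not made.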

Additional observations from a re-analysis of the deposited data

How the results depend on the processing

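The 31 lysosomal genes were run under 18 alternatives, of which 2 had values for 24 and 29 of them. Of these values 475 kept their direction and side of the threshold and 40 lost the call. A further 8 gained it with the same sign, and 26 turned sign. Among the 26, Laptm5 also gained the call, with the probe set of largest interquartile range. All 40 losses fall on 9 of the 10 called genes, and Lipa was called in every alternative (adjusted p from 0.00353 to 0.0380). The number called higher was 10 with all arrays, 1 to 10 with an array left out, 6 where probe sets of a gene were averaged, 6 of 24 tested with plain-suffix probe sets and 1 at an adjusted p below 0.01. It was 8 to 12 under the other scalings, filters and variance models and 13 of 29 tested with the probe set of largest interquartile range, and the number called lower was 0 throughout. For all genes, 826 were called higher and 244 lower with all arrays, 108 to 939 and 40 to 306 with an array left out, and 125 and 47 at an adjusted p below 0.01. Array weights gave 373 lower genes. Of lysosomal probe sets 16 were called higher, 1 to 15 with an array left out, and 1 (Ctsc) was called lower with no filter. The cause of these shifts was not tested.

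With the mean of the probe sets the call ended for Ctsz (0.45), Neu1 (0.32), Ppt1 (0.30) and Atp6v1a (0.56), and the sign turned for Ctsc (-0.32), Gla (-0.0031), Laptm5 (0.21), Atp6v1b2 (-0.023) and Atp6v1h (0.013). This mean took every probe set of a gene, also those below the level filter. Ppt1 and each gene whose sign turned had such probe sets, while Ctsz, Neu1 and Atp6v1a had none. The Neu1 probe sets other than the representing one lay close to that filter. The 1 tested Ctsc probe set had a positive difference (0.44). With plain-suffix probe sets the sign turned for Ctsl (-0.13), Mcoln1 (-0.13) and Atp6v1e1 (-0.040). With the largest interquartile range it turned for Ctsl (-0.13), Lamp2 (-0.083) and Laptm5 (0.73, called), and Ctsb and Tpp1 were called (0.86 and 1.07). Quantile normalization turned Gaa (-0.10), Tfeb (-0.059) and Sqstm1 (-0.076). Cyclic loess turned Gaa (-0.074), Tfeb (-0.0074) and Sqstm1 (-0.13) and ended the call of Ctsz (0.56). Median centring turned Smpd1 (0.030) and Atp6v1h (0.033), and array weights Tfeb (-0.039) and Atp6v0d2 (-0.089). None of the genes whose sign turned was called with all arrays. With an array left out the differences ran from -0.021 to 0.16 for Gaa, -0.052 to 0.032 for Smpd1, -0.045 to 0.052 for Tfeb, -0.11 to 0.27 for Atp6v0d2, -0.081 to 0.11 for Atp6v1h, -0.044 to 0.69 for Npc1 and -0.18 to 0.23 for Sqstm1.

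The diets share replicate numbers, but same-numbered arrays deviated together with correlations of -0.012, 0.036 and 0.10, so the numbers were not read as pairs. With a replicate block 7 lysosomal genes were called, and Ctsk, Ctsz and Atp6v1a were not (adjusted p = 0.0559, 0.0593 and 0.0650). 11 lysosomal probe sets were called with the block.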
